A study of Mus musculus with 60 samples.

Results

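The genes described here form the natriuretic peptide and cGMP signaling set, 10 of the 46480 genes counted: the receptors Npr1, Npr2 and Npr3, the ligands Nppa, Nppb and Nppc, the cGMP-dependent kinases Prkg1 and Prkg2, and the phosphodiesterases Pde5a and Pde2a. The set was chosen by the level of Npr1, which was lower after enrichment in these same samples, and the other 9 genes were added by name. The difference between housings in the 10 genes is therefore given as a description without a test. All lists of genes used here were drawn up with earlier results of these data known. The difference between dorsal and ventral dentate gyrus (DG) was not the ground for choosing the set and is tested for the genes other than Npr1. For Npr1 it takes in the same EE samples and is described only. RNA-Seq was performed on total RNA from tissue punches of the dorsal and ventral DG of male C57BL6J mice that were weaned on day 22, spent 8 weeks in standard housing (SH, 3 mice per cage) or an enriched environment (EE, 12 mice in a larger cage with running wheels, a bridge and objects that were changed) and were collected at 80 days of age. No transgene or drug was used in any group. Each of the 20 samples pooled tissue of several mice, and the dorsal and ventral samples with one replicate number came from the same mice. The p-values therefore measure the spread between pooled samples, not between mice. The main fit took the 4 groups without pairing the regions by pool, and a fit with the pool as a block is given as an alternative. Values are from 18 samples: 4 of dorsal SH, 5 of dorsal EE, 4 of ventral SH and 5 of ventral EE. SH replicate 3 was left out in both regions, because Xist, which is expressed from the inactive X chromosome of females, had 789 counts in its dorsal and 308 in its ventral library, against at most 16 in any other, although every mouse is labelled male.

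Natriuretic peptides are hormones and local signals that bind receptors on the cell surface. Npr1 and Npr2 are receptors with a guanylate cyclase inside the cell, which makes the second messenger cGMP when the peptide binds. Npr1 answers mainly to the atrial and brain peptides (Nppa and Nppb) and Npr2 to the C-type peptide (Nppc), while Npr3 has no cyclase and takes up and clears all of them. cGMP activates the kinases Prkg1 and Prkg2, gates ion channels and is broken down by phosphodiesterases such as Pde5a, which is specific for cGMP, and Pde2a, which cGMP itself stimulates and which also degrades cAMP. In the brain the C-type peptide is known as the most widespread of the ligands, and cGMP is also made by soluble guanylate cyclase in response to nitric oxide.

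The 3 receptor genes differ in the sequence just before their start sites, and those 250 bases are shown as a description. A link between these sequences and the levels of the receptors was not tested. Upstream sequence was found in the RefSeq table (GRCm38.p6) for 9 of the 10 genes. The windows are chr3:90465867-90466116 on the minus strand for Npr1, chr4:43631685-43631934 on the plus strand for Npr2 and chr15:11907372-11907621 on the minus strand for Npr3, each written 5′ to 3′ on the strand of the gene and ending at the base before the RefSeq start. That start is the Gencode start for Npr1 and Npr2, while for Npr3 it lies farther upstream than the Gencode start that the gene's coordinates give. Capitals mark matches, on either strand, to a GC box (GGGCGG) or a CCAAT box (CCAAT). The Npr1 window held 2 adjoining GC boxes and 1 CCAAT box, and the Npr3 window held 1 CCAAT box. A TATA box (TATAAA), an AP-1 site (TGANTCA) and a cAMP response element (TGACGTCA) were searched for too and matched in none of the 3 windows. Of 32536 windows of the same length in the table, 33.0% held a GC box, 33.8% a CCAAT box, 12.3% a TATA box, 6.73% an AP-1 site and 1.56% a cAMP response element. The share of G and C was 70.4% for Npr1, 64.4% for Npr2 and 38.8% for Npr3, whose window opens with a long GAA repeat.
Npr1: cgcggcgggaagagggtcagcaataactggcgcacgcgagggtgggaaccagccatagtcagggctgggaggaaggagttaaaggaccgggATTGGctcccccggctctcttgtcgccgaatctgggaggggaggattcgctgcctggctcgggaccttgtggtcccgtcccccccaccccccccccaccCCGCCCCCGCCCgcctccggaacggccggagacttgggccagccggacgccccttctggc
Npr2: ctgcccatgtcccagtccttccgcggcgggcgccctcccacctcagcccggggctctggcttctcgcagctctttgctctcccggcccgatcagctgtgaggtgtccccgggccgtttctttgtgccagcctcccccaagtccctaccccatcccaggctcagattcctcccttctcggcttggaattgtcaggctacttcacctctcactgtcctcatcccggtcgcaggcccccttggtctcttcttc
Npr3: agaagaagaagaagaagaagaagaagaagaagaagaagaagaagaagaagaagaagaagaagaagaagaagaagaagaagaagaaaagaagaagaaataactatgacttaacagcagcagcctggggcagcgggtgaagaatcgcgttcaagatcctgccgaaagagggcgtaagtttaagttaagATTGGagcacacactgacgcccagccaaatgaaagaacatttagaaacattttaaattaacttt

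The 18 libraries had 22919364 to 28301861 fragments counted on genes, and the 17040 genes counted over 10 times in 2 or more samples were tested, 8 of the 10 genes among them. All 6 granule cell markers examined were expressed, and their summed level was 1326 to 1621 CPM (counts scaled to library size after TMM normalization) in dorsal and 704 to 1024 CPM in ventral samples. Markers of other cells differed with region too. A marker counts where it passed FDR 0.05 and a fold change of at least 20%, as 32.7% of all tested genes did. Lists near that share do not stand out from it. All 9 choroid plexus markers were lower in dorsal DG, with sums of 25.5 to 213 CPM in dorsal and 395 to 1442 CPM in ventral samples. The highest dorsal sum was that of SH replicate 1. Of the leptomeningeal fibroblast markers 4 of 7 were lower in dorsal DG (sums of 59.7 to 85.8 CPM against 91.3 to 120 CPM), as were 2 of 4 mossy cell markers (13.2 to 27.4 CPM against 62.3 to 106 CPM). Of the mural cell markers 3 of 8 were lower, with sums that overlapped (183 to 214 CPM against 193 to 253 CPM). The mural marker Pdgfrb was higher in the dorsal sample of all 9 pools, and Rgs5 in the ventral sample of all 9, each by less than 20%. One direction in all 9 pools was seen in 40.4% of all tested genes. In dorsal DG 5 of 6 granule cell and 4 of 5 thalamus and habenula markers were higher. No endothelial or oligodendrocyte marker passed, and of the remaining lists all 4 CA pyramidal markers passed, 2 in each direction, and 3 of 6 interneuron, 2 of 6 astrocyte and 1 of 5 microglia markers were lower in dorsal DG. None of the 72 markers in 12 lists was at 0 in any group mean. The habenula marker Pou4f1, at 0.018 CPM in ventral SH and 0.039 CPM in ventral EE, was too low there to be told from 0. In bulk tissue, fewer cells of a type and less RNA per cell cannot be told apart. Dorsal tissue was taken from coronal and ventral tissue from horizontal sections, so the plane of section and the region cannot be told apart either.

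Levels of different genes are compared in TPM, which is scaled for transcript length. Pde2a was the most abundant of the 10 genes in every group, at a mean of 24.7 TPM over the 18 samples, which exceeded 90.5% of the tested genes. Pde5a (5.11 TPM), Npr2 (4.14 TPM) and Prkg1 (2.38 TPM) followed, and the levels of Npr1 (0.851 TPM), Npr3 (0.709 TPM), Nppc (0.651 TPM) and Prkg2 (0.484 TPM) were below 1 TPM. Nppa and Nppb were near 0, at 0.0456 and 0.00778 TPM. The order changed with region. In both dorsal groups Npr2 ranked 2 of 10 and overlapped with Pde5a, whereas in both ventral groups Pde5a ranked 2 of 10 and lay above Npr2 in every sample. Npr3 ranked 8 of 10 in dorsal SH and dorsal EE and 5 of 10 in ventral SH and ventral EE, where its range overlapped with that of Npr1. Npr2 was the most abundant receptor in all 4 groups.

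**Figure D1:**
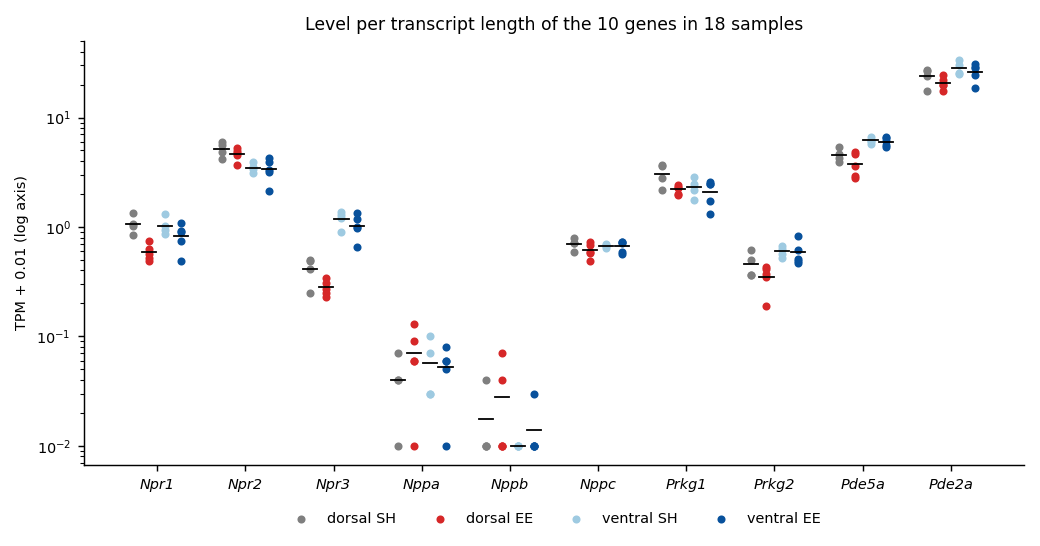
Level per transcript length of the 10 genes, as TPM plus 0.01 on a log axis, for each of the 18 samples, with a black line at the mean of each group and colours for the 4 groups. Pde2a sits highest at a mean of 24.7 TPM over all samples, Nppa and Nppb lie near 0, and Npr3 shows the widest gap between dorsal and ventral samples.

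Between dorsal and ventral DG, 5 of the 7 tested genes other than Npr1 passed the limits of FDR 0.05 and a fold change of at least 20% (edgeR quasi-likelihood test, mean of both housings), against 32.7% of all tested genes. Npr3, Prkg2, Pde5a and Pde2a were higher in ventral DG, where 16.8% of all tested genes were called, and Npr2 was higher in dorsal DG, where 15.9% were. Nppc and Prkg1 did not pass. The median log2 fold change of dorsal over ventral was -0.40 for the 8 genes, Npr1 among them, and -0.0046 for all tested genes. Dorsal and ventral samples did not overlap for 5 of the 8 genes (Npr2, Npr3, Prkg2, Pde5a and Pde2a), as for 18.9% of all tested genes (9.51% with dorsal above ventral and 9.44% with ventral above dorsal). A difference of one direction in all 9 pools was seen in 40.4% of all tested genes. With the left-out pool in view, Npr2, Npr3, Pde5a and Pde2a still did not overlap and Prkg2 did.

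Npr3 (ENSMUSG00000022206.6; chr15:11839896-11907287, minus strand), the clearance receptor, had the largest difference between regions. In dorsal SH it was at 5.88, 3.95, 6.53 and 4.69 CPM in replicates 1, 2, 4 and 5, and in dorsal EE at 4.86, 4.43, 5.04, 3.71 and 3.81 CPM in replicates 1 to 5. In ventral SH it was at 16.0, 21.1, 17.3 and 22.0 CPM, and in ventral EE at 18.4, 16.2, 20.8, 14.1 and 20.2 CPM. Every ventral sample thus lay far above every dorsal one. The level was 3.86-fold higher in ventral DG, with a log2 fold change of dorsal over ventral of -1.95 ± 0.10 (SE, adjusted p = 1.64e-13 in edgeR's quasi-likelihood test), and ventral exceeded dorsal in all 9 pools. The log2 fold change was -1.86 ± 0.14 within SH and -2.04 ± 0.13 within EE. SH replicate 1, whose dorsal library had the most choroid plexus RNA of the dorsal samples, had dorsal Npr3 at 5.88 CPM. Without that pool the log2 fold change was -2.02. Choroid plexus RNA and region went together in these samples and cannot be told apart. The part of the cell types whose markers moved with region in this and the following differences was not tested.

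Npr2 (ENSMUSG00000028469.14; chr4:43631935-43651244, plus strand), the receptor for the C-type peptide, went the other way. It was at 27.7, 24.8, 25.8 and 25.0 CPM in dorsal SH and at 27.4, 26.9, 28.4, 28.9 and 26.2 CPM in dorsal EE. In ventral SH it was at 21.0, 21.0, 22.2 and 22.9 CPM, and in ventral EE at 22.4, 22.0, 21.6, 22.9 and 23.4 CPM. All dorsal samples were above all ventral samples, though by little. Npr2 was 1.21-fold higher in dorsal DG (log2 fold change 0.27 ± 0.03 SE, adjusted p = 7.45e-07 in edgeR's quasi-likelihood test), in all 9 pools. Its fold change is close to the limit of 20% and fell below it without SH replicate 1 (log2 fold change 0.25) or without EE replicate 3 (0.26), with adjusted p of 1.02e-05 and 7.87e-06 in the same edgeR test.

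Npr1 (ENSMUSG00000027931.11; chr3:90450591-90465866, minus strand), the receptor for the atrial and brain peptides, had a mean log2 fold change of dorsal over ventral of -0.35 ± 0.08 (SE) over both housings, with ventral above dorsal in 8 of 9 pools. Dorsal and ventral samples overlapped. The fitted log2 fold change of dorsal over ventral was -0.15 ± 0.11 within SH, or 1.11-fold, which is under the limit of 20%, and -0.54 ± 0.11 within EE, or 1.46-fold. The mean of both therefore rests mostly on the EE samples by which Npr1 was chosen, and no test is given for it.

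Among the ligands, Nppc (ENSMUSG00000026241.5; chr1:86666291-86670571, minus strand) was expressed at a low level that varied from 27 to 49 counts per library. It was at 1.04, 1.28, 1.32 and 1.27 CPM in dorsal SH and 1.47, 1.62, 1.38, 1.31 and 0.944 CPM in dorsal EE, against 1.695, 1.62, 1.09 and 1.35 CPM in ventral SH and 1.90, 1.99, 1.41, 1.496 and 1.56 CPM in ventral EE. The 4 groups overlapped. Nppc was 1.21-fold higher in ventral DG and narrowly missed the limit (log2 fold change -0.28 ± 0.12 SE, adjusted p = 0.0552 in edgeR's quasi-likelihood test), with ventral above dorsal in 8 of 9 pools. It passed without SH replicate 4 (adjusted p = 0.0274 in edgeR) or without EE replicate 3 (adjusted p = 0.0498 in edgeR), and with unstranded counts (adjusted p = 0.0473 in edgeR). Nppa (ENSMUSG00000041616.9; chr4:148000722-148002079) and Nppb (ENSMUSG00000029019.8; chr4:147985788-147987205), neighbours on chromosome 4, were too low to test. Nppa had 4, 0, 1 and 1 counts in dorsal SH, 4, 8, 0, 5 and 3 in dorsal EE, 4, 2, 2 and 1 in ventral SH and 2, 4, 2, 0 and 2 in ventral EE. Nppb had 1 count in dorsal SH replicate 2, 2 in dorsal EE replicate 4, 1 in dorsal EE replicate 5 and 1 in ventral EE replicate 1, and none in the other 14 libraries. A count of 0 allows up to 3 counts, or 0.106 to 0.131 CPM at these depths, by counting error alone, so differences in these ligands were not detectable.

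Of the kinases, Prkg2 (ENSMUSG00000029334.13; chr5:98929773-99037351, minus strand), the membrane-bound form, was higher in ventral DG and Prkg1 (ENSMUSG00000052920.13; chr19:30564489-31765033, minus strand), the soluble form, did not pass the test. Prkg2 was at 4.95, 4.40, 3.46 and 3.02 CPM in dorsal SH and at 3.76, 4.85, 3.86, 2.00 and 4.09 CPM in dorsal EE. In ventral SH it was at 6.39, 6.46, 5.15 and 7.12 CPM, and in ventral EE at 7.30, 7.38, 5.84, 6.18 and 5.37 CPM. The regions did not overlap, although the lowest ventral sample exceeded the highest dorsal one by a small margin. The left-out SH replicate 3 had dorsal Prkg2 at 6.67 CPM, above all other dorsal samples and inside the ventral range. The difference was 1.65-fold (log2 fold change -0.72 ± 0.12 SE, adjusted p = 2.31e-05 in edgeR's quasi-likelihood test), in all 9 pools. Prkg1 was at 18.6 to 21.3 CPM in dorsal SH, 16.6 to 18.6 CPM in dorsal EE, 15.7 to 19.9 CPM in ventral SH and 15.5 to 20.7 CPM in ventral EE. Its log2 fold change of dorsal over ventral was 0.04 ± 0.05 (SE, adjusted p = 0.539 in edgeR), and the 95% interval from -0.07 to 0.15 leaves room for a small difference either way.

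Both phosphodiesterases were higher in ventral DG. Pde2a (ENSMUSG00000030653.15; chr7:101421691-101512827, plus strand) was at 193, 189, 201 and 197 CPM in dorsal SH and 213, 199, 204, 197 and 194 CPM in dorsal EE, against 265, 270.5, 270.2 and 295 CPM in ventral SH and 285, 287, 299, 257 and 285 CPM in ventral EE. Its samples varied little within a group, and the regions were far apart. Pde2a was 1.41-fold higher in ventral DG (log2 fold change -0.49 ± 0.03 SE, adjusted p = 4.86e-11 in edgeR's quasi-likelihood test). Of the 3 transcripts counted for it, 2 are of Pde2a and 1 is of an overlapping gene model in Gencode vM21, and their reads cannot be told apart. Pde5a (ENSMUSG00000053965.9; chr3:122728947-122859374, plus strand) was at 18.7, 23.5, 20.3 and 20.9 CPM in dorsal SH and 19.6, 22.8, 21.1, 19.8 and 20.2 CPM in dorsal EE. In ventral SH it was at 28.5, 31.1, 24.6 and 26.1 CPM, and in ventral EE at 32.3, 34.5, 27.8, 24.8 and 25.6 CPM. Ventral samples spread more widely than dorsal ones but stayed above them. Pde5a was 1.36-fold higher in ventral DG (log2 fold change -0.45 ± 0.06 SE, adjusted p = 3.57e-06 in edgeR's quasi-likelihood test), and both genes were higher in the ventral sample of all 9 pools.

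**Figure D2:**
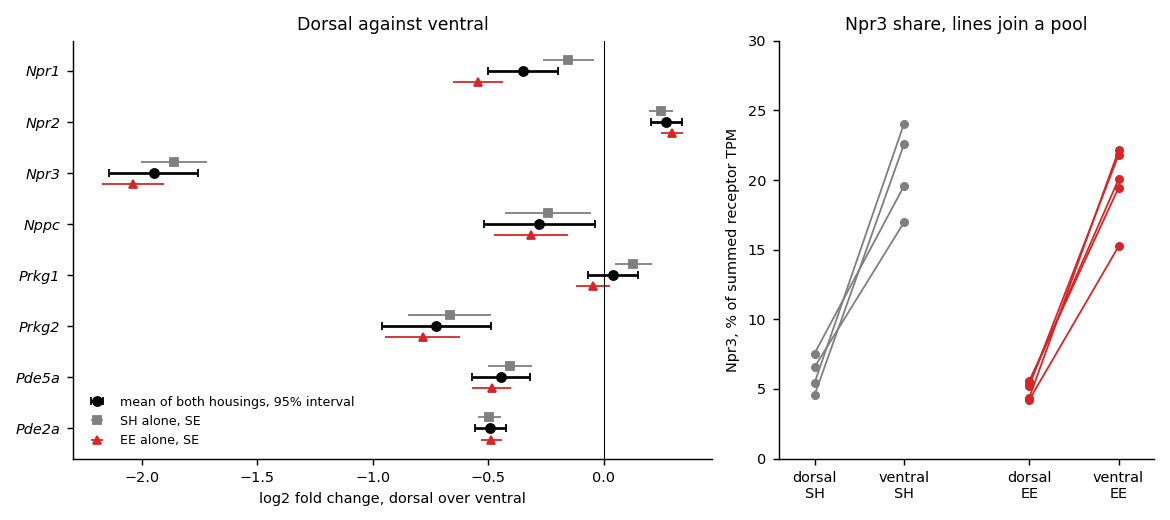
Left, log2 fold change of dorsal over ventral DG for the 8 tested genes, with the mean of both housings and its 95% interval in black and the SH and EE values with their SE in grey and red. Right, Npr3 as a percentage of the summed TPM of the 3 receptors, with lines that join the dorsal and ventral sample of a pool. Npr3 lies farthest from 0 at -1.95, Npr2 is to the right of 0, and each of the 9 lines rises from dorsal to ventral.

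The balance among the receptors differed with region. Of the summed TPM of Npr1, Npr2 and Npr3, the clearance receptor Npr3 made up 6.02% ± 1.31 (SD, n = 4) in dorsal SH and 4.94% ± 0.627 (SD, n = 5) in dorsal EE, against 20.8% ± 3.15 (SD, n = 4) in ventral SH and 19.7% ± 2.76 (SD, n = 5) in ventral EE. Dorsal values ran from 4.199% to 7.54% and ventral values from 15.2% to 24.0%, without overlap. Within a pool the ventral share was higher by 14.8 percentage points ± 3.14 (SD, 9 pools, p = 0.00391, two-sided exact permutation test with the regions exchanged within pools), which is the smallest p that 9 pools can give. This comparison was added after the values of the receptors were seen. By then Npr3 was known to be higher, and Npr2 lower, in the ventral sample of every pool. The smallest p was therefore foreseeable and adds no support to those differences. The summed TPM also holds Npr1, by whose level the set was chosen. Because the share is a ratio within a sample, it does not depend on the scaling between samples.

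Enrichment was accompanied by a lower level of Npr1 in both regions, which is the pattern the set was chosen for. In dorsal SH Npr1 was at 7.82, 7.20, 7.05 and 7.60 CPM, and in dorsal EE at 5.05, 5.51, 4.797, 3.51 and 4.02 CPM. In ventral SH it was at 8.16, 8.45, 8.39 and 8.04 CPM, and in ventral EE at 7.49, 5.21, 7.45, 6.97 and 6.11 CPM. All EE samples were below all SH samples of their region, and the EE samples were more spread out than the SH samples. A level lower in EE without overlap was seen in 1.78% of all tested genes in dorsal DG, in 1.17% in ventral DG and in 0.2% in both regions. The fitted log2 fold change was -0.70 ± 0.11 (SE) in dorsal and -0.31 ± 0.11 in ventral DG, or 0.616 and 0.807 of the SH level, and their difference was -0.39 ± 0.15. The left-out SH replicate 3, whose values did not enter the choice, had Npr1 at 7.59 CPM in dorsal DG, inside the range of the other SH samples and above every EE sample, and at 7.57 CPM in ventral DG, below the other SH samples and just above the highest EE sample.

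Npr1 rested on 86 to 231 counts per library. The antisense gene Gm16048 (chr3:90451583-90457095, plus strand) lies within Npr1 and had 2 to 12 counts on its own strand. When strand was ignored, Npr1 had 74 to 182 counts. Over all alternative settings the log2 fold change of EE over SH ranged from -0.77 to -0.60 in dorsal and from -0.36 to -0.23 in ventral DG. Of the 72 cell type markers, 1 was lower in EE in dorsal DG and the same 1 in ventral DG, and none was higher. That marker was Ogn, a secreted proteoglycan of fibroblasts, at group means of 17.4 CPM in dorsal SH, 9.84 in dorsal EE, 20.7 in ventral SH and 15.2 in ventral EE. The 7 leptomeningeal markers summed to 74.6 to 85.8 CPM in dorsal SH, 59.7 to 81.9 CPM in dorsal EE, 97.8 to 115 CPM in ventral SH and 91.3 to 120 CPM in ventral EE. Their part in the level of Npr1 was not tested.

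**Figure D3:**
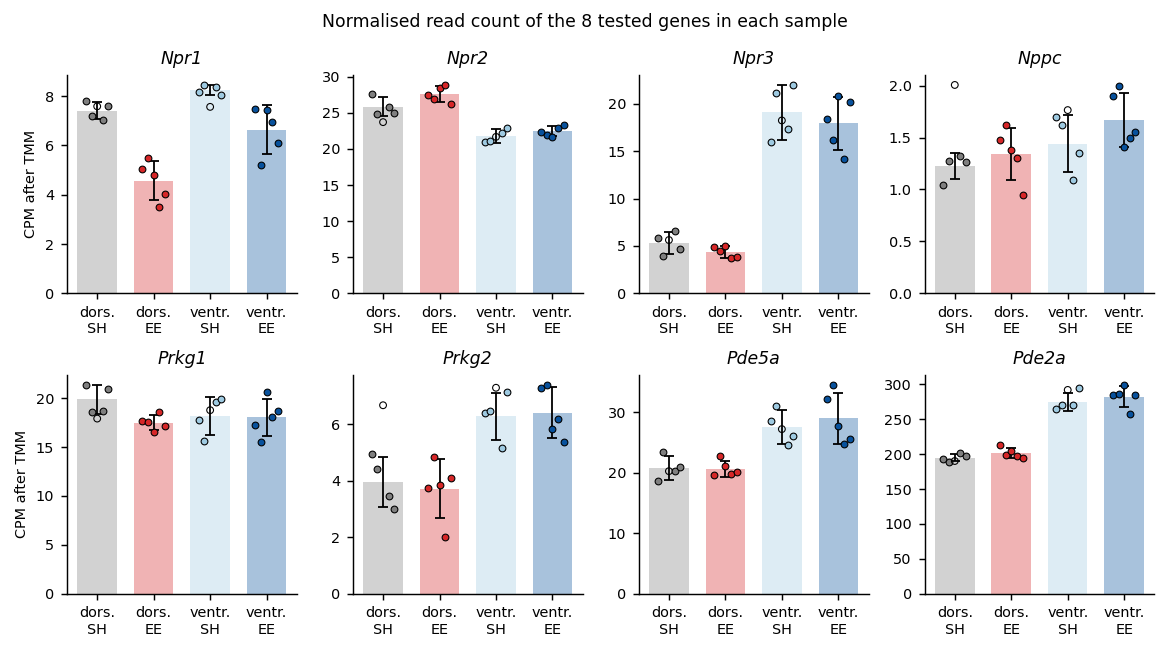
Normalised read count (CPM after TMM normalization) of the 8 tested genes in each sample, with bars at the mean and error bars of 1 SD for each of the 4 groups. Filled points are the 18 samples used and open points the left-out SH replicate 3. In the Npr1 panel every EE sample lies below every used SH sample of its region, and in the Npr3 panel every ventral sample lies above every dorsal sample.

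The other 7 tested genes had smaller differences between housings, and SH and EE samples overlapped for each of them in both regions. In dorsal DG the log2 fold change of EE over SH was -0.27 ± 0.16 (SE) for Npr3, -0.19 ± 0.08 for Prkg1 and 0.13 ± 0.18 for Nppc, and lay between -0.09 and 0.09 for Npr2, Prkg2, Pde5a and Pde2a. In ventral DG it was 0.20 ± 0.17 for Nppc and lay between -0.09 and 0.07 for the other 6 genes. The SE was 0.05 for Pde2a, the most abundant gene, and 0.18 for Nppc and Prkg2, the least abundant of the tested genes, so smaller differences could be resolved in Pde2a than in them. In dorsal DG all 5 EE samples of Prkg1 were at or below 18.6 CPM, where the SH samples began. The left-out dorsal SH replicate 3 was at 17.9 CPM, inside the range of the EE samples.

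**Figure D4:**
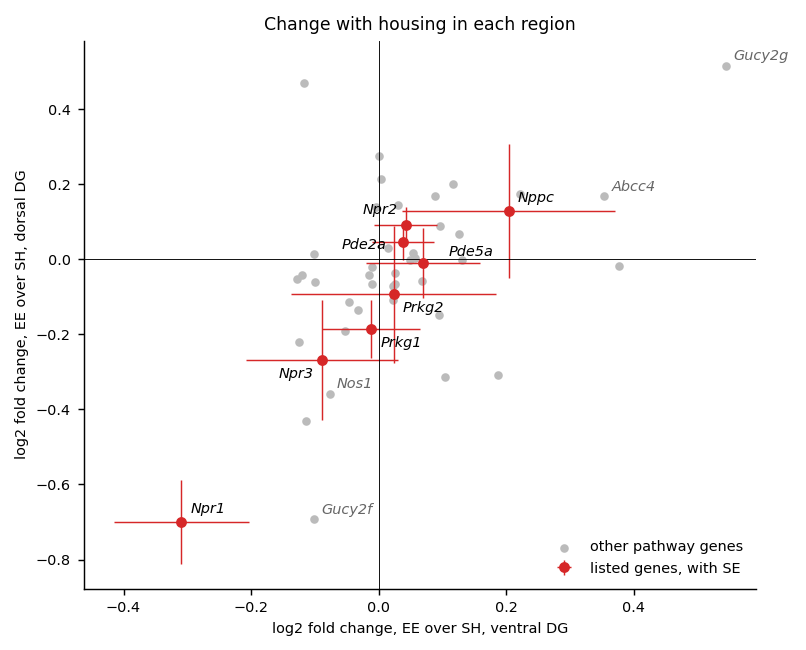
Log2 fold change of EE over SH in ventral DG (horizontal axis) and dorsal DG (vertical axis) for the 8 tested genes in red, with SE bars, and for the 40 other tested genes of the cGMP pathway in grey. Npr1 lies at the lower left, at -0.31 and -0.70, with Gucy2f at a like dorsal value but a ventral value nearer 0, and Gucy2g lies at the upper right.

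The rest of the pathway was described by a list of 53 further genes, 40 of which were tested. Between regions 18 of the 40 genes passed the limits, 10 of them toward dorsal and 8 toward ventral DG, or 45.0% against 32.7% of all tested genes. The median log2 fold change of dorsal over ventral was 0.03 for the list and -0.0046 for all tested genes. Of the phosphodiesterases 7 of 10 tested genes were called, and of the membrane guanylate cyclases outside the receptors 3 of 3. Pde1a, a phosphodiesterase activated by calcium and calmodulin, was at 60.5 to 81.8 CPM in dorsal and 198 to 245 CPM in ventral samples, 3.13-fold higher in ventral DG (log2 fold change -1.64 ± 0.05 SE, adjusted p = 3.26e-17 in edgeR's quasi-likelihood test). Pde11a, which degrades both cyclic nucleotides, was at 2.49 to 4.65 CPM in dorsal samples, 7.06 to 9.66 CPM in ventral SH and a median of 9.86 CPM in ventral EE samples (2.43-fold, adjusted p = 3.63e-11 in edgeR). Dorsal and ventral samples of both genes did not overlap. Pde1c (1.64-fold) and Pde9a (1.63-fold), which is specific for cGMP, were higher in ventral DG without overlap, and Pde6h (1.56-fold), a subunit of the photoreceptor enzyme, was higher with overlap. Pde1b, the paralog of Pde1a, was the reverse of it, 1.46-fold higher in dorsal DG (adjusted p = 2.66e-09 in edgeR). Pde1a and Pde1b thus differed between regions in opposite directions, each in all 9 pools.

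Some membrane guanylate cyclases other than the natriuretic receptors are known from the retina and other sensory tissue. Gucy2f was 1.99-fold higher in ventral DG, and Gucy2g was higher in dorsal DG by a like amount (log2 fold change 0.97 ± 0.10 SE, adjusted p = 1.23e-08 in edgeR's quasi-likelihood test). Both were low, with at most 80 counts for Gucy2f and 196 for Gucy2g in a library. Among channels gated by cyclic nucleotides, Cngb1 was 3.45-fold higher in dorsal DG (log2 fold change 1.79 ± 0.16 SE, adjusted p = 4.58e-09 in edgeR), at 1.66 to 2.52 CPM in dorsal and 0.263 to 1.06 CPM in ventral samples. The pacemaker channel gene Hcn4 was 1.43-fold higher in dorsal DG, with overlap. Rgs2, an inhibitor of G protein signaling that Prkg1 phosphorylates, was 1.34-fold higher in dorsal DG, at 38.7 to 46.9 CPM against 29.2 to 33.2 CPM. The other 6 genes called between regions differed by 1.23-fold to 1.34-fold: Gucy1b1, Gucy2e, Pde10a, Itpr1 and Ppp1r12a were higher in dorsal and Pln in ventral DG. No nitric oxide synthase passed, and of the 3 tested subunits of soluble guanylate cyclase 1 did.

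**Figure D5:**
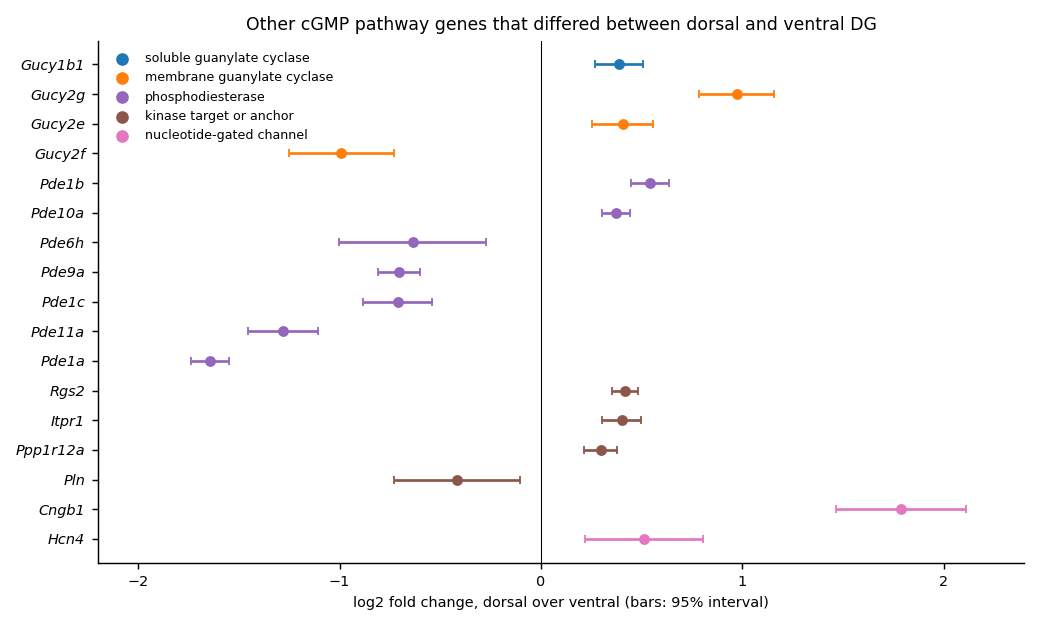
Log2 fold change of dorsal over ventral DG, with 95% intervals, for 17 of the 18 further genes of the cGMP pathway that passed the limits, coloured by their role. Pde1a at -1.64 and Cngb1 at 1.79 are the outermost genes, and the phosphodiesterases fall on both sides of 0.

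With housing, 2 of the 40 further genes passed the limits in dorsal DG, or 5.0% against 0.634% of all tested genes. Nos1, the neuronal nitric oxide synthase, was at 122, 104, 112 and 115 CPM in dorsal SH and at 99.7, 80.6, 98.0, 76.5 and 86.5 CPM in dorsal EE, without overlap. Its log2 fold change was -0.36 (adjusted p = 0.0441 in edgeR's quasi-likelihood test). Gucy2g was at 4.59, 4.65, 3.89 and 4.39 CPM in dorsal SH and at 4.94, 5.88, 6.38, 7.34 and 6.85 CPM in dorsal EE, again without overlap, with a log2 fold change of 0.52 (adjusted p = 0.0497 in edgeR). Both calls were near the limit in this fit. Over all alternatives the adjusted p ranged from 6.48e-04 (edgeR with the replicate block) to 0.154 for Nos1 and from 0.0114 to 0.196 for Gucy2g, and Nos1 passed in 8 of 17 alternatives and Gucy2g in 6 of 16. In DESeq2 the adjusted p was 0.0116 for Nos1 and 0.0143 for Gucy2g. Mme, the peptidase neprilysin that degrades natriuretic peptides, was named after its values were seen. It had a log2 fold change of -0.43 without overlap in dorsal DG and did not pass (adjusted p = 0.0809 in edgeR), but passed in 3 of 17 alternatives, which were no low-count filter (adjusted p = 0.0198 in edgeR), the replicate block (0.00996) and DESeq2 (0.0282). Its adjusted p reached 0.312 in the others. A dorsal level without overlap between housings was seen in 2.21% of all tested genes that were higher in EE and, as above, in 1.78% that were lower. In ventral DG Gucy2g was higher in EE without overlap too, with a log2 fold change of 0.54, and did not pass (adjusted p = 0.181 in edgeR). With each of the 9 pools left out in turn, Nos1 passed in 2 and its adjusted p in edgeR ranged from 0.0319 to 0.154, and Gucy2g passed in 1 with a range of 0.0218 to 0.196, while their fold changes stayed between -0.40 and -0.31 for Nos1 and between 0.46 and 0.60 for Gucy2g. Gucy2f had a dorsal log2 fold change of -0.69 ± 0.21 (SE) at 17 to 42 counts per library, with overlap, and did not pass (adjusted p = 0.179 in edgeR). The left-out SH replicate 3, scaled with all 20 samples, had dorsal Nos1 at 100.1 CPM. That was below the other SH samples and just above the highest EE sample at 99.7 CPM. Its dorsal Gucy2g was at 3.75 CPM, below all other dorsal samples.

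In ventral DG none of the 40 genes passed in edgeR, against 0.241% of all tested genes. An unadjusted p under 0.05 in edgeR was seen in 3 of the 40, and the share of all tested genes at that level was not counted. DESeq2 called 76 genes in all, 1 of them in the list. That gene was Abcc4, an exporter of cyclic nucleotides, at 11.4, 10.9, 10.9 and 11.1 CPM in ventral SH and 12.3, 14.5, 15.5, 13.98 and 14.5 CPM in ventral EE (log2 fold change 0.35, adjusted p = 0.0501 in edgeR and 0.00819 in DESeq2). Over all alternatives its adjusted p ranged from 0.00819 to 0.236. Ventral Nos1 was at 87.7 to 111 CPM in SH and 87.4 to 109 CPM in EE and did not pass. No gene of the list differed in its housing effect between regions by edgeR's test of the interaction, which 0.00587% of all tested genes passed. An unadjusted p under 0.05 was seen in 5 of the 40 in that test, and the share of all tested genes at that level was not counted. DESeq2 called 1 gene of all those tested for interaction.

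Genes whose level followed that of Npr1 most closely were sought among the 12200 tested genes above 1 TPM in 3 or more samples, as a description. Over the 18 samples the highest Pearson correlations of log2 CPM were with Gpc3 (0.866), Tspan18 (0.852), Ogn (0.85), Sord (0.845) and Synm (0.835). Gpc3, a proteoglycan anchored to the cell surface, had group means of 6.12 CPM in dorsal SH, 3.09 in dorsal EE, 7.13 in ventral SH and 5.35 in ventral EE, the same order as Npr1. After the mean of each region was subtracted, the closest genes were Scml4 (0.909), Cacng5 (0.878), Grid1 (0.868), Igfbp5 (0.852) and Atp2b4 (0.837), a calcium pump of the plasma membrane with 52.9 CPM in dorsal SH, 36.8 in dorsal EE, 84.2 in ventral SH and 69.9 in ventral EE. The 18 samples share their pools and the housing difference by which Npr1 was chosen, so genes that differ with housing rank high in this comparison. Within the set, Nppa, Nppb, Nppc and Prkg2 were not above 1 TPM in 3 or more samples and were not compared. For the other genes the values over the 18 samples were 0.587 for Npr3, 0.439 for Pde2a, 0.394 for Pde5a, 0.361 for Prkg1 and -0.65 for Npr2. After the mean of each region was subtracted they were 0.497 for Npr3, 0.504 for Prkg1 and -0.539 for Npr2, and closer to 0 for Pde5a (-0.0709) and Pde2a (-0.235).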

How the data were processed

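Per the labels, total RNA was sequenced as paired, stranded libraries, and reads were processed with Trim Galore 0.4.0, STAR 2.5.1b and RSEM 1.2.30 on mm10. The authors deposited for each sample a raw count of fragments per gene, of which the count on the reverse strand was used. The authors also deposited an expected count, TPM and FPKM per gene. TPM was used for levels, expected counts (rounded) in one alternative, and FPKM not at all. The 40 bisulfite and TAB samples were not analysed here.

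Identifiers were named through Gencode vM21: 45924 by gene, 228 by a transcript and 44 by most of their transcripts, Pde2a among the last, and 284 had no name. Counts were normalized by TMM and fitted in edgeR 4.0.16 (R 4.3.3, limma 3.58.1) as 4 groups, with Benjamini-Hochberg adjustment over all 17040 tested genes; interaction calls needed FDR 0.05 only. Intervals are estimates ± 1.96 SE. Likeness used log2(CPM + 0.1). Fragments outside genes, on several places or ambiguous were 32.6% to 40.9% and entered no library size. The model was checked on simulated counts.

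The 10 genes, the 53 pathway genes and the markers were chosen with earlier results of these data known. Named pathway genes are those called, up to 12 per test by fold change, and those beyond, with Abcc4, Gucy1a1 and Gucy1a2, were named after their values were seen. Of the pathway genes called between regions, 1 is not reported here. The test of the receptor share and the values of each region difference within a housing were chosen then too. Same-numbered dorsal and ventral samples share mice (deviations correlated at 0.0827 on average over 9 pairs). Alternatives were RLE factors, DESeq2 1.42.0, other filters, unstranded or expected counts, all 20 samples, a replicate block, leaving out each pool, another region test and log2(TPM + 0.1). Other tools were python 3.11.15, pandas 2.3.3, numpy 2.4.6, scipy 1.17.1 and matplotlib 3.10.9.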

Additional observations from a re-analysis of the deposited data

Results flagged for a closer look

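In ventral EE replicate 4 Gucy2g was at 4.37 CPM, while the other 4 samples of that group were at 2.70 to 3.11 CPM, and its gap to them was 0.759 of the range of the group. In ventral EE replicate 5 Pde10a was at 70.5 CPM and the other 4 samples were at 64.0 to 65.8 CPM, with a gap of 0.721 of the range. These were the only samples that stood apart in this way in 84 groups of pathway genes and receptor shares, where about 1 group in 20 does so by chance. None of the 32 groups of the 8 tested members held such a sample.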

How the results depend on the processing

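The number of members called between regions was 6 and ranged from 5 to 7 over 18 alternatives. Of all tested genes 32.7% were called in the main fit. The count takes in Npr1, for which no test is given, and says nothing about Npr1 itself. Leaving out each pool gave 5 to 7 members, 17 to 18 pathway genes and 5162 to 5607 genes between regions, and for housing in dorsal DG 70 to 109 genes (70 without SH replicate 4) with 0 to 2 pathway genes. In ventral DG it gave 18 to 50 genes (24 without SH replicate 2, 18 without SH replicate 4, 26 without EE replicate 3) with 0 to 1 pathway genes, and for the interaction 0 to 0 genes. With only genes over 1 TPM in at least 3 samples, fewer genes were tested and 3448 genes (5573 before) and 11 pathway genes were called between regions, 0 pathway genes for housing in dorsal DG, 26 genes (41 before) in ventral DG and 0 for the interaction. For housing in dorsal DG, 1 pathway gene was called with unstranded, 0 with expected counts and 3 with no low-count filter, the replicate block or DESeq2. For housing in ventral DG, RLE size factors, no low-count filter, all 20 samples and DESeq2 each gave 1 pathway gene, and no low-count filter and DESeq2 gave 78 and 76 genes. Npr2 was past the FDR but under a fold of 20% between regions with unstranded counts (log2 fold change 0.25), expected counts (0.25) and all 20 samples (0.26). No result reversed among those called. The cause of these changes was not tested.

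On the log2(TPM + 0.1) scale the median of all tested genes was 0.16 for dorsal over ventral, -0.23 for EE over SH in dorsal and -0.15 in ventral DG, so TPM served only for levels and shares within a sample. On that scale Npr1 was at -0.18 between regions, -0.77 for EE in dorsal and -0.31 in ventral DG. EE and SH samples of one number came from different mice. Their deviations correlated at 0.0815 to 0.175, with a mean of 0.126, against 0.0827 on average for dorsal and ventral samples of the same mice. What they share beyond the number was not tested. A replicate block for the number gave 202 genes (108 before) for housing in dorsal DG, and 91 genes and 1 pathway gene in ventral DG. A replicate block for the pool, whose dorsal and ventral samples share mice, gave 2 genes for the interaction. It left 6 members called between regions, Npr1 counted among them, with Npr3 at -1.95 (adjusted p = 7.24e-13 in edgeR). With 4 and 5 pools a group and 27 to 49 counts of Nppc per library, small differences in the low genes were not detectable.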
